A study of Mus musculus with 22 samples.

Results

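Cadherins are transmembrane or membrane-anchored proteins that hold neighbouring cells together by binding cadherins on the next cell in the presence of calcium. The classical members bind β-catenin and p120-catenin inside the cell, and α-catenin and vinculin link that complex to actin. The type I group includes E-cadherin of epithelia (Cdh1), N-cadherin of mesenchymal, neural and muscle cells (Cdh2), P-cadherin (Cdh3) and R-cadherin (Cdh4), and the type II group includes VE-cadherin of endothelium (Cdh5), K-cadherin (Cdh6) and OB-cadherin of osteoblasts and fibroblasts (Cdh11). T-cadherin (Cdh13) has no cytoplasmic tail, is held in the membrane by a glycosylphosphatidylinositol anchor, and is found on endothelial and smooth muscle cells. The 8 genes Cdh1, Cdh2, Cdh3, Cdh4, Cdh5, Cdh6, Cdh11 and Cdh13 were taken by symbol from the 41388 genes counted in each library, as the gene of the conditional knockout and its relatives, and not by their measured values.

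The libraries came from stroma of breast tumors grown in C57BL/6 mice that all carried Osx-cre and the Ai9 TdTomato reporter. Osx-cre is a Cre transgene under the promoter of Sp7, which encodes the osteoblast transcription factor osterix, with a tetracycline-repressed switch, so that TdTomato marks cells in which the transgene is or was active. The study fed its Osx-cre mice doxycycline until weaning, which the labels of these libraries do not mention. The labels give an orthotopic MMTV-BO1 tumor and an age of postnatal day 56, whereas the design text of the deposit and the study describe subcutaneous tumors, in the study from a GFP-labelled PyMT-BO1 line whose GFP+ cells were removed before sorting. Mice labelled wild type (WT) were Osx-cre;Ai9, and mice labelled Cdh2-cKO;Ai9 carried a conditional knockout of Cdh2. The sort by TdTomato (written Osx) and surface CD45, the pan-leukocyte phosphatase, gave 4 populations, of which each genotype has 2 libraries of Osx+ CD45- cells and 3 each of Osx- CD45-, Osx+ CD45+ and Osx- CD45+ cells, 22 in all. The labels call these biological replicates from 6 Cdh2-cKO and 4 WT mice, without saying which mouse gave which library.

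Total counts on genes ran from 16594228 to 26784003 per library (median 18977040). At these depths 3 counts, the smallest signal read as present, correspond to between 0.103 and 0.201 normalized CPM, the read count scaled to a common library size. Floors and the counting intervals of pooled counts cover counting error only. The intervals given with fold changes rest on the standard errors of the fit, which include the spread between libraries. The summed level of 10 leukocyte genes was 16816 to 20915 normalized CPM in the CD45+ libraries, and in the CD45- libraries it reached 10181.5 in Osx- CD45- WT replicate 3 and 6563 in Osx+ CD45- Cdh2-cKO replicate 1, against 243 to 2904 in the other 8. In Osx- CD45+ WT replicate 2 the sum of 10 endothelial genes was 222 normalized CPM, against 16.5 to 45.0 in the other 11 CD45+ libraries. Pecam1 alone made up 214 normalized CPM of that sum. No count of Sp7, Bglap or Bglap2, the osterix and osteocalcin genes that define osteoblasts, was found in any of the 4 Osx+ CD45- libraries, and these were 3 of the 8 osteoblast lineage genes measured. Sp7 had 0 or 1 count in each of the 22 libraries, so its absence was not particular to Osx+ CD45- cells. Bglap and Bglap2 also had no count in the Osx- CD45+ WT libraries, but each had counts in some Osx- CD45- and Osx+ CD45+ libraries. The study detected Sp7 by real-time PCR in TdTomato+ cells sorted from B16-F10 tumors. Runx2, the early osteoblast transcription factor, had 708 to 1026 counts in the 4 Osx+ CD45- libraries. It had 257 to 881 counts in Osx- CD45- and 156 to 592 in CD45+ libraries. The summed level of the 8 genes was 36.7 to 59.6 normalized CPM in Osx+ CD45-, 28.3 to 89.2 in Osx- CD45- and 9.56 to 35.5 in CD45+ libraries. Because these are bulk samples, fewer cells that express a gene and less of its RNA per cell cannot be told apart.

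The first comparison asked which cadherins separate the hematopoietic from the non-hematopoietic stroma. Cdh1 was higher in CD45+ than in CD45- populations, and the other 7 cadherins were lower, in both genotypes together. All 8 passed edgeR's quasi-likelihood test, with the threshold set at 0.05 for p adjusted by Benjamini-Hochberg, and so did 63.7% of the 15043 genes tested (32.6% higher and 31.1% lower in CD45+), so that a difference between these sorts is common. A gene was tested if it exceeded 1 CPM in 2 or more libraries. Cdh4 and Cdh6 exceeded it only in CD45- libraries, 6 and 3 of them. Their lower level in CD45+ cells was thus favoured by this filter. The 8 log2 fold changes ran from -7.02 to 4.07, with a median of -4.39 against 0.06 over all genes. This median includes the fitted value of Cdh6, which is uncertain because some CD45+ groups held no count of it. All 12 CD45+ libraries lay below all 10 CD45- libraries for Cdh2, Cdh5, Cdh11 and Cdh13, as did 11% of the genes tested. The libraries of the 2 sorts overlapped for Cdh1, Cdh3, Cdh4 and Cdh6.

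**Figure D1:**
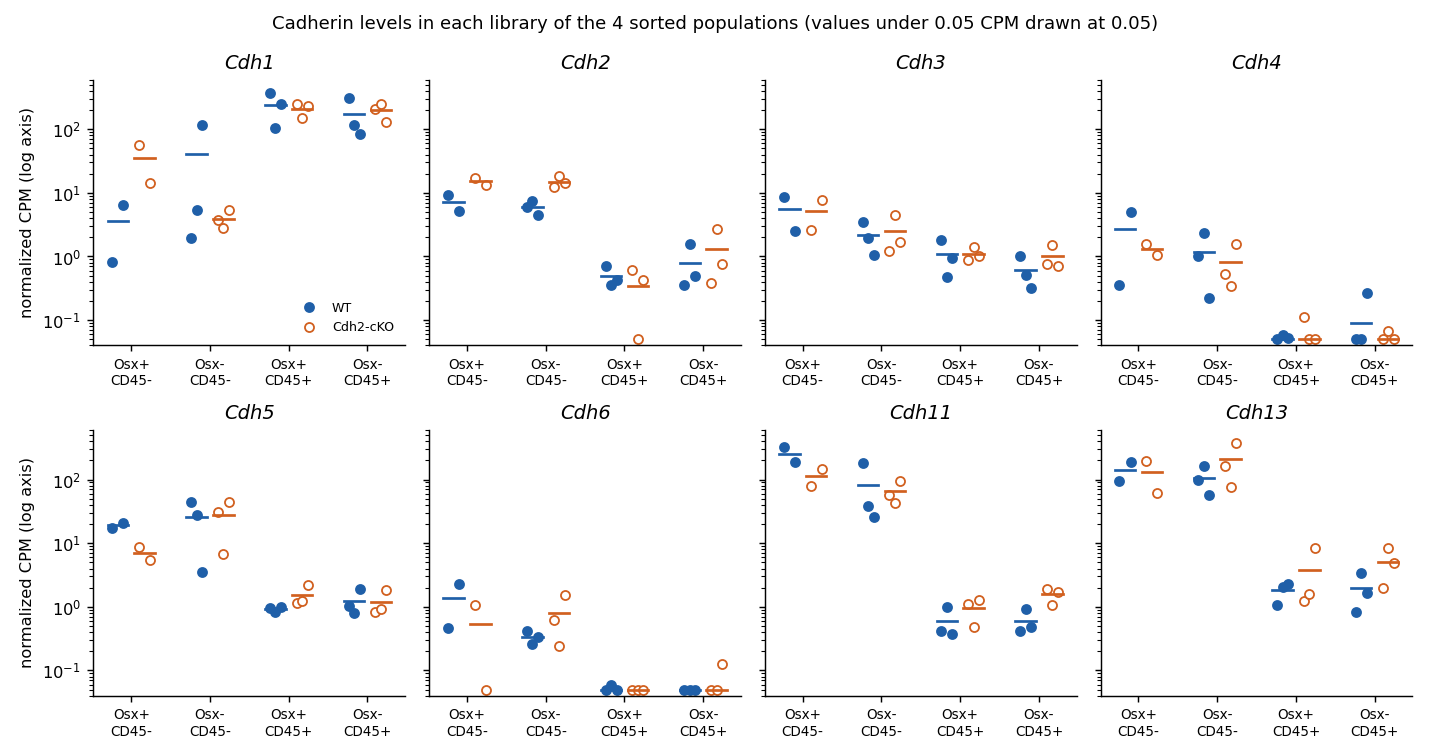
Normalized CPM on a log axis for each of the 8 cadherins, with 1 point per library, filled for WT and open for Cdh2-cKO, and a line at the mean of each population and genotype. In all 12 CD45+ libraries Cdh1 lies between 85.2 and 366 normalized CPM, while Cdh11 and Cdh13 are both above 25 normalized CPM in all 10 CD45- libraries and below 9 in all CD45+ libraries.

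Among the type I cadherins, Cdh1 (ENSMUSG00000000303, GRCm38 chromosome 8, 106603351 to 106670246, plus strand, 16 exon blocks) was at 85.2 to 366 normalized CPM in the CD45+ libraries, with a median of 222 over 12. In Osx+ CD45- cells it was at 0.817 and 6.47 normalized CPM in WT and at 56.0 and 14.3 in Cdh2-cKO. In Osx- CD45- cells it was at 1.93, 5.42 and 117 in WT and at 3.73, 2.81 and 5.29 in Cdh2-cKO. A single CD45- library, at 117, thus reached into the range of the CD45+ libraries. The log2 fold change of CD45+ against CD45- was 4.07 ± 0.65 (SE; edgeR quasi-likelihood test, Benjamini-Hochberg adjusted p = 3.46e-05). It was 4.87 without the library at 117 and 5.20 without both CD45- libraries of high leukocyte sum (edgeR adjusted p = 8.79e-08 and 9.28e-07). Within CD45+ cells, Osx+ and Osx- libraries did not separate, at 225 ± 90.5 (SD, n = 6) and 185 ± 87.3 (SD, n = 6) normalized CPM.

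Within the CD45- libraries the level of Cdh1 lay closer to the leukocyte than to the epithelial genes. The 2 CD45- libraries with the most Cdh1 were the 2 with the highest leukocyte sums. Over the 10 CD45- libraries Pearson's r of Cdh1 with the leukocyte sum was 0.935, and with the sum of 10 epithelial or tumor cell genes it was 0.256, as descriptions of libraries that share preparation and depth. Over the 12 CD45+ libraries, whose leukocyte sums differ little, r with the leukocyte sum was 0.021. As a percentage of the leukocyte sum Cdh1 was 0.476 to 2.11 in the CD45+ libraries and 0.240 to 1.15 in the CD45- libraries, ranges that overlap. The epithelial sum itself was 26.6 to 219 normalized CPM in CD45+ and 42.1 to 1995 in CD45- libraries, and was carried by keratins. Krt18 had 349 to 32379 counts in the CD45- libraries, while Epcam, the epithelial adhesion molecule, had 0 to 37 counts there and 9 to 151 in the CD45+ libraries. The part of leukocyte RNA in the level of Cdh1 in CD45- libraries was not tested.

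**Figure D2:**
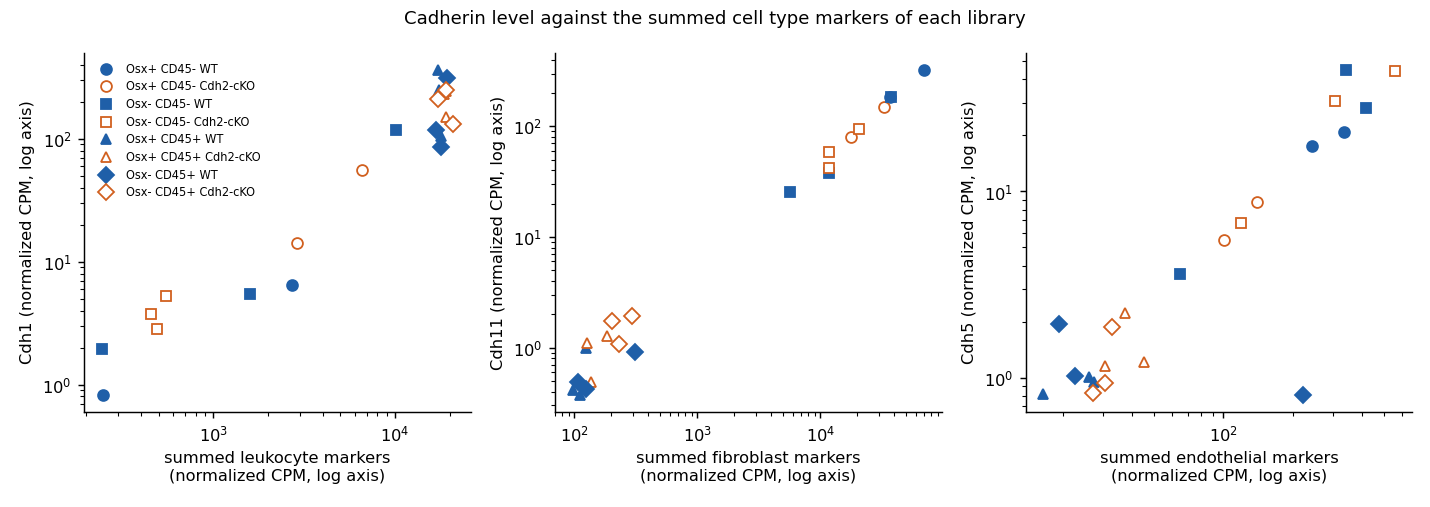
Normalized CPM of Cdh1, Cdh11 and Cdh5 against the summed normalized CPM of leukocyte, fibroblast and endothelial marker genes, on log axes, with 1 point per library, shaped by population and filled for WT. The CD45- library with the most Cdh1, at 117, is also the one with the highest leukocyte sum, 10181.5, and Cdh11 lies near a fixed share of the fibroblast sum over all CD45- libraries.

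Cdh2 (ENSMUSG00000024304, chromosome 18, 16588877 to 16809246, minus strand, 17 exon blocks) was at 4.52 to 18.4 normalized CPM in the 10 CD45- libraries, with a median of 10.8, and at 0 to 2.74 in the 12 CD45+ libraries, with a median of 0.454. No library of either sort crossed into the range of the other. The log2 fold change of CD45+ against CD45- was -3.94 ± 0.41 (SE; edgeR quasi-likelihood test, adjusted p = 2.97e-07). Osx+ CD45- cells (11.2 ± 5.16, SD, n = 4) and Osx- CD45- cells (10.5 ± 5.39, SD, n = 6) did not differ beyond their spread, with a log2 fold change of 0.13 ± 0.54 (SE). In the CD45+ libraries, where 0 to 41 reads is a low level, Cdh2 was lower in Osx+ than in Osx- cells by an unadjusted p of 0.035, which did not hold after adjustment (log2 fold change -1.30 ± 0.57, edgeR adjusted p = 0.999886).

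Cdh3 (ENSMUSG00000061048, chromosome 8, 106510913 to 106556908, plus strand, 16 exon blocks), next to Cdh1 on the chromosome, had the smallest fold change of the 8 between the sorts. It was at 1.05 to 8.53 normalized CPM in CD45- libraries and at 0.323 to 1.84 in CD45+ libraries. The ranges overlapped, and the log2 fold change was -1.91 ± 0.36 (SE; edgeR quasi-likelihood test, adjusted p = 0.000184). In Osx+ CD45- cells Cdh3 was at 8.53 and 2.56 in WT and at 2.57 and 7.70 in Cdh2-cKO, so that the replicates of 1 genotype differed more than the genotypes. Unlike its neighbour Cdh1, Cdh3 thus had its lowest levels in CD45+ cells.

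Cdh4 (ENSMUSG00000000305, chromosome 2, 179442431 to 179899373, plus strand, 19 exon blocks) was at low counts throughout. All CD45- libraries together held 330 counts and all CD45+ libraries 10, a depth-adjusted ratio of 31.5 with a 95% counting interval of 16.9 to 66.3. In 11 of the 12 CD45+ libraries it was below 3 counts. The exception was Osx- CD45+ WT replicate 3 with 5 counts, which is above the lowest CD45- library. The log2 fold change was -4.85 ± 0.74 (SE; edgeR quasi-likelihood test, adjusted p = 2.28e-05). Of the 330 CD45- counts, 128 came from Osx+ CD45- WT replicate 2. The log2 fold change was -4.13 without that library, which leaves a single library in its group. It was -5.84 without Osx- CD45+ WT replicate 3 and -5.53 without Osx+ CD45+ Cdh2-cKO replicate 1, and Cdh4 passed the test in both. In each of these 2 fits a CD45+ group is left without a count of Cdh4, so the fitted values are uncertain.

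Among the type II cadherins, Cdh11 (ENSMUSG00000031673, chromosome 8, 102632995 to 102785111, minus strand, 13 exon blocks) had the largest fold change of the 8. In Osx+ CD45- cells it was at 326 and 186 normalized CPM in WT and at 80.2 and 148 in Cdh2-cKO. In Osx- CD45- cells it was at 183, 37.97 and 25.5 in WT and at 58.2, 42.4 and 94.7 in Cdh2-cKO. The CD45+ libraries were at 0.370 to 1.92 normalized CPM, all of them above the floor of 3 counts and far below the lowest CD45- library. The log2 fold change was -7.02 ± 0.39 (SE; edgeR quasi-likelihood test, adjusted p = 1.62e-10), or 130-fold lower in CD45+ cells. Cdh11 followed the fibroblast genes closely. It was 0.321% to 0.503% of the summed level of 10 fibroblast genes in every CD45- library although that sum ran from 5660 to 69667 normalized CPM, and Pearson's r over the 10 libraries was 0.987. In the CD45+ libraries, where the fibroblast sum was 97.0 to 310, Cdh11 was 0.295% to 0.870% of it, with an r of 0.732 over 12 libraries.

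Cdh5 (ENSMUSG00000031871, chromosome 8, 104101625 to 104144502, plus strand, 12 exon blocks) was at 17.6 and 20.9 normalized CPM in Osx+ CD45- WT and at 8.74 and 5.51 in Osx+ CD45- Cdh2-cKO. In Osx- CD45- cells it was at 45.2, 28.2 and 3.58 in WT and at 30.7, 6.74 and 44.6 in Cdh2-cKO. The CD45+ libraries were at 0.802 to 2.23, below every CD45- library, and the log2 fold change was -3.86 ± 0.39 (SE; edgeR quasi-likelihood test, adjusted p = 2.20e-07). Within CD45- cells Cdh5 rose and fell with the sum of 10 endothelial genes, of which it was 5.51% to 13.2%, with an r of 0.967 over 10 libraries. In the CD45+ library with the high endothelial sum, Osx- CD45+ WT replicate 2, Cdh5 was at 0.802 normalized CPM, the lowest value of all 22 libraries, and 0.361% of that sum. Pecam1 alone made up 214 of the 222 normalized CPM of that sum, so the library was not high in the endothelial genes as a set. Over the 12 CD45+ libraries, this one included, r with the endothelial sum was -0.163.

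Cdh6 (ENSMUSG00000039385, chromosome 15, 13034200 to 13173639, minus strand, 12 exon blocks) had the fewest counts, 174 in the 10 CD45- libraries and 3 in the 12 CD45+ libraries. The depth-adjusted ratio was 55.4 with a 95% counting interval of 18.6 to 271. It was at 2.32, 1.54 and 1.06 normalized CPM in 3 CD45- libraries, at 0 in Osx+ CD45- Cdh2-cKO replicate 2, and between 0.242 and 0.631 in the other 6. Cdh6 passed the main fit (edgeR quasi-likelihood test, adjusted p = 0.000135). The call was lost without Osx+ CD45- Cdh2-cKO replicate 1, and without both CD45- libraries of high leukocyte sum, of which it is one. Both fits leave that group with a single library that holds no count of Cdh6, so they cannot show whether the call holds. The fitted fold change of Cdh6 is not given, since 2 of the CD45+ groups held no count.

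Cdh13 (ENSMUSG00000031841, chromosome 8, 118283733 to 119324921, plus strand, 20 exon blocks), the anchored member, was far lower in CD45+ cells as well. It was at 93.3 and 190 normalized CPM in Osx+ CD45- WT and at 198 and 61.2 in Osx+ CD45- Cdh2-cKO, and at 97.8, 161 and 58.2 in Osx- CD45- WT and 166, 77.4 and 383 in Osx- CD45- Cdh2-cKO. The CD45+ libraries were at 0.842 to 8.54, with no overlap, and the log2 fold change was -5.62 ± 0.46 (SE; edgeR quasi-likelihood test, adjusted p = 1.54e-08). In CD45- libraries its r with the endothelial sum was 0.766 and with the fibroblast sum 0.0697. In CD45+ libraries its r with the epithelial sum was 0.877.

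To compare levels between the genes, CPM were divided by the exonic length of each gene in kilobases. The 8 cadherins together reached 22.9 to 93.8 CPM per kilobase in CD45- libraries (mean 54.1 ± 21.6, SD, n = 10) and 19.6 to 81.0 in CD45+ libraries (mean 46.0 ± 19.1, SD, n = 12). The summed levels therefore overlapped almost completely while the members that made them up did not. Cdh1 held 94.6% to 98.9% of the sum in every CD45+ library, and no other member held more than 2.49% in any of them. Behind it came Cdh5 (0.841% ± 0.630), Cdh13 (0.708% ± 0.516), Cdh11 (0.579% ± 0.383), Cdh3 (0.532% ± 0.188) and Cdh2 (0.226% ± 0.221; all SD, n = 12), of which no neighbouring pair differed beyond its spread. In the CD45- libraries Cdh11 was the leading member in 6, Cdh13 in 3 and Cdh1 in 1, Osx- CD45- WT replicate 3, where it held 66.1%.

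In Osx+ CD45- cells the order by mean share was Cdh11 (62.9% ± 20.4), Cdh13 (19.2% ± 11.1), Cdh1 (7.74% ± 10.1), Cdh5 (4.75% ± 1.95), Cdh2 (2.33% ± 1.496), Cdh3 (2.09% ± 1.39), Cdh6 (0.544% ± 0.566) and Cdh4 (0.426% ± 0.388; all SD, n = 4). Cdh11 lay above Cdh13 by more than their summed SD, and each later pair of neighbours lay within its spread. In Osx- CD45- cells Cdh11 (36.4% ± 17.2) and Cdh13 (31.0% ± 14.8) were followed by Cdh5 (13.9% ± 7.40), Cdh1 (12.8% ± 26.1), Cdh2 (3.61% ± 3.28), Cdh3 (1.64% ± 1.69), Cdh6 (0.446% ± 0.221) and Cdh4 (0.324% ± 0.322; all SD, n = 6), and every pair of neighbours lay within its spread. The place of Cdh1 here rests on WT replicate 3, at 66.1%, since the other 5 libraries were at 0.641% to 3.53% and the median was 2.38%, against 2.60% for Cdh2. Without the division by length Cdh13 came to 36.1% in Osx+ CD45- and 50.6% in Osx- CD45- cells, ahead of Cdh11 in the latter at 24.7%.

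**Figure D3:**
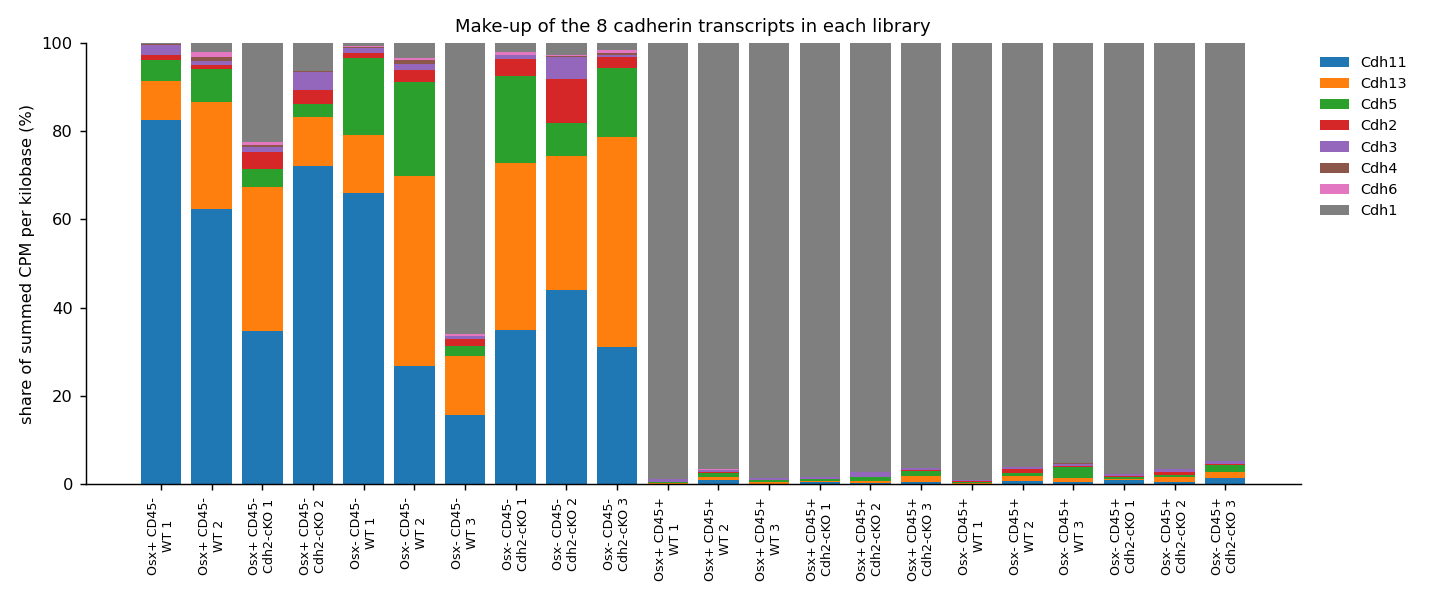
Share of each cadherin in the summed CPM per kilobase of the 8 genes, as stacked bars, 1 bar per library, grouped by population and genotype. Cdh1 fills 94.6% to 98.9% of every CD45+ bar, while the CD45- bars are mostly Cdh11 and Cdh13 except in Osx- CD45- WT replicate 3, where Cdh1 takes 66.1%.

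The second comparison asked whether the TdTomato-marked cells differ in their cadherins from unmarked cells of the same CD45 class. None of the 8 passed the test within CD45- cells, where 1.89% of all genes did, and none within CD45+ cells, where 0.00665% did (edgeR quasi-likelihood test). At an unadjusted p under 0.05 there were 3 cadherins within CD45- and 1, Cdh2, within CD45+ cells. Of the 15043 genes tested, 2856 and 610 were under it in these contrasts. Within CD45- cells Cdh11 was at 80.2 to 326 normalized CPM in the 4 Osx+ libraries and 25.5 to 183 in the 6 Osx- libraries, a log2 fold change of 1.23 ± 0.45 with a 95% interval of 0.28 to 2.17 (edgeR adjusted p = 0.147). The highest Osx- value, 183 in WT replicate 1, exceeded 2 of the 4 Osx+ values. Without that library the log2 fold change of Cdh11 was 1.91 (edgeR adjusted p = 0.00984), and by limma's voomWithQualityWeights on all libraries it was 1.61 (adjusted p = 0.0167). By the latter, 710 of the 15043 genes passed in this contrast. In the other 10 of 11 settings, and in the other 21 of 22 fits without a single library, Cdh11 did not pass, and over all of these fits the log2 fold change ran from 0.79 to 1.91 and the adjusted p from 0.00984 to 0.545. The fibroblast sum stood beside it at 17687 to 69667 in Osx+ CD45- and 5660 to 37728 in Osx- CD45- libraries, and its part in the result was not tested.

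Cdh3 had a log2 fold change of 1.19 ± 0.51 (edgeR adjusted p = 0.218) and Cdh5 of -1.18 ± 0.54 (edgeR adjusted p = 0.250) in Osx+ against Osx- cells within CD45-. The endothelial sum was 100 to 336 normalized CPM in Osx+ CD45- and 64.5 to 557 in Osx- CD45- libraries. Without Osx- CD45- WT replicate 3 and Osx- CD45+ WT replicate 2, which stand apart by their leukocyte and endothelial sums, Cdh5 passed at -1.44 ± 0.41 (edgeR adjusted p = 0.0386). Cdh13 had a log2 fold change of -0.13, with a 95% interval of -1.36 to 1.09. Cdh1, at -0.17 over both genotypes, was higher in Osx+ CD45- cells when only the Cdh2-cKO libraries were fitted (3.14 ± 0.51, edgeR adjusted p = 0.00183), where the leukocyte sum was 2904 and 6563 in Osx+ and 454 to 545 in Osx- libraries. The part of leukocyte RNA in that difference was not tested.

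**Figure D4:**
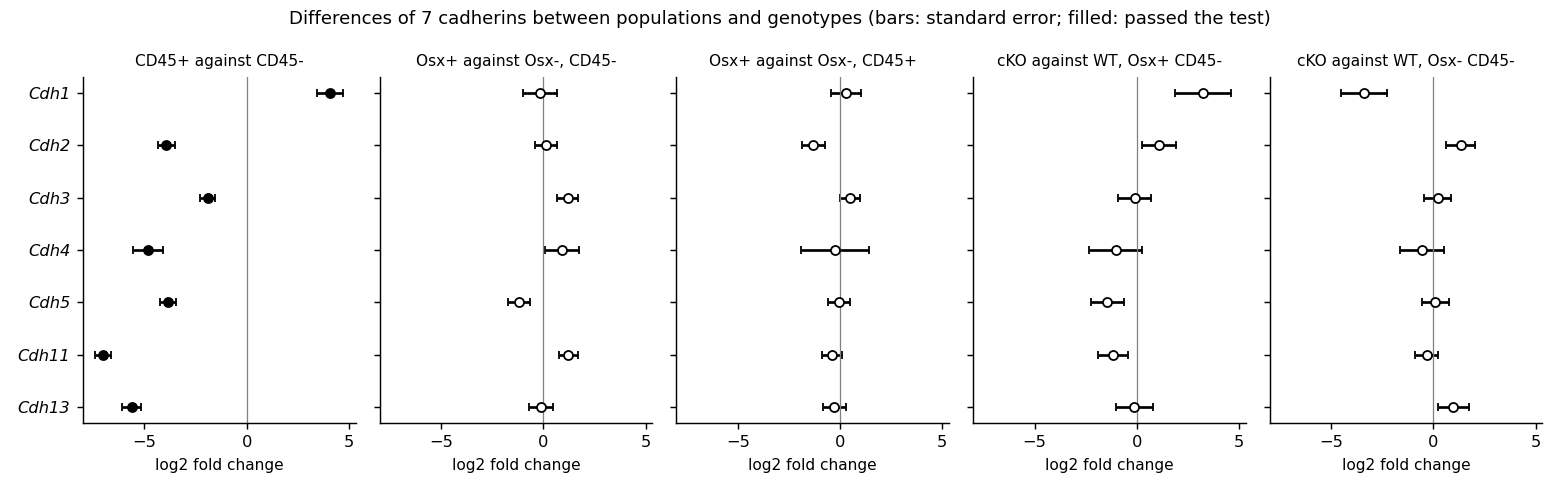
Log2 fold changes of 7 cadherins (x axis) in 5 contrasts, as points with bars of 1 standard error from edgeR, filled where the adjusted p was at most 0.05. Filled points appear only in the contrast of CD45+ against CD45-, with Cdh1 at 4.07 and the others between -7.02 and -1.91. Cdh6 is left out because 2 groups held no count of it.

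The third comparison was between the genotypes, beginning with the gene that the Cdh2-cKO label names. In neither CD45- population was Cdh2 lower in the libraries labelled Cdh2-cKO. In Osx+ CD45- cells, where Osx-cre is or was active, Cdh2 was at 9.14 and 5.19 normalized CPM in WT and at 17.2 and 13.1 in libraries labelled Cdh2-cKO. In Osx- CD45- cells it was at 6.02, 7.47 and 4.52 in WT and at 12.5, 18.4 and 14.2 in libraries labelled Cdh2-cKO. All 5 CD45- libraries labelled Cdh2-cKO thus lay above all 5 WT libraries, as did 0.492% of the genes tested. Within Osx+ CD45- cells alone, 21.4% of genes lay apart in this direction, and within Osx- CD45- cells 3.84%. The log2 fold change of Cdh2-cKO against WT was 1.08 ± 0.84 in Osx+ CD45- cells (edgeR quasi-likelihood test, adjusted p = 0.668) and 1.32 ± 0.69 in Osx- CD45- cells (adjusted p = 0.625), and neither passed the test.

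The 95% interval of the log2 fold change in Osx+ CD45- cells was -0.70 to 2.86. The counts span all exons of Cdh2, the deleted exons are not given in the sources used here, and an mRNA that lacks some exons can still be counted, so these counts do not check the deletion. Beside this difference, the epithelial or tumor cell sum was 42.1 and 568.2 normalized CPM in Osx+ CD45- WT, 883 and 920 in Osx+ CD45- Cdh2-cKO, 479 to 1401 in Osx- CD45- WT and 1062 to 1995 in Osx- CD45- Cdh2-cKO. The r of Cdh2 over the 10 CD45- libraries was 0.360 with that sum and highest, at 0.698, with the sum of 8 skeletal muscle genes. The part of these cells in the level of Cdh2 was not tested.

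**Figure D5:**
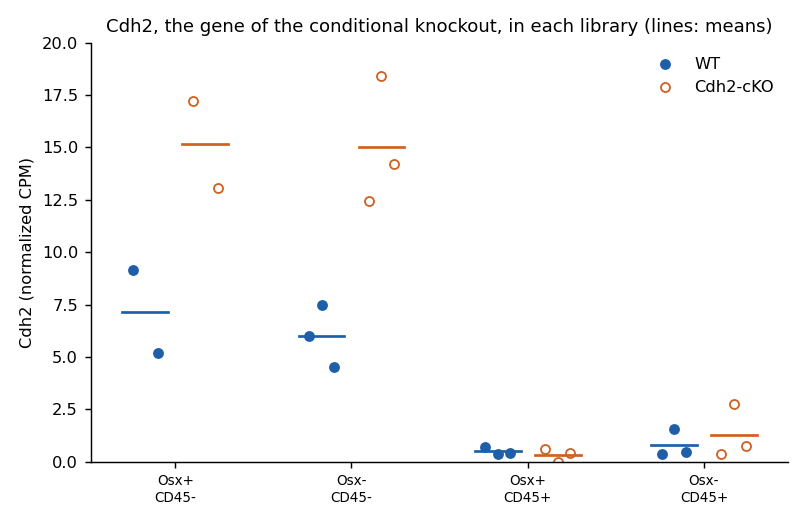
Normalized CPM of Cdh2 (y axis, linear, from 0) in each library of the 4 populations, filled for WT and open for Cdh2-cKO, with a line at the mean of each group. In both CD45- populations the Cdh2-cKO libraries, at 12.5 to 18.4, lie above the WT libraries, at 4.52 to 9.14.

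In CD45+ cells Cdh2 was at 0.713, 0.351 and 0.422 normalized CPM in Osx+ WT and at 0.607, 0 and 0.421 in Osx+ Cdh2-cKO, and at 0.361, 1.55 and 0.485 in Osx- WT and 0.384, 2.74 and 0.769 in Osx- Cdh2-cKO. The genotypes overlapped in both populations. The log2 fold changes, -0.55 and 0.69, each changed sign without 1 library, the respective Cdh2-cKO replicate 2, to 0.06 and -0.47.

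None of the 8 cadherins passed the test between the genotypes in any population. Over all genes the share that passed was 0.00665% in Osx+ CD45- cells and 0% in each of the other 3 populations and over all 4 (edgeR quasi-likelihood test). Counts without adjustment were not 0: at an unadjusted p under 0.05 there were 1583 genes in Osx+ CD45-, 1443 in Osx- CD45-, 515 in Osx+ CD45+, 1478 in Osx- CD45+ cells and 1733 over all 4, and DESeq2 called 137, 548, 1, 41 and 120 genes, voom 0 in each. Among the members only Cdh1 reached an unadjusted p under 0.05, in both CD45- populations and in opposite directions. In Osx+ CD45- cells its log2 fold change was 3.25 ± 1.37 (edgeR adjusted p = 0.439) and in Osx- CD45- cells -3.39 ± 1.12 (edgeR adjusted p = 0.212). The difference between them was 6.64 ± 1.79 (edgeR adjusted p = 0.139), where 0.00665% of all genes passed. DESeq2 called 548 of the 15043 genes in Osx- CD45- cells and 560 for the difference. Cdh1 was among them in both, at -3.28 (DESeq2 adjusted p = 0.0186) and 6.50 (DESeq2 adjusted p = 0.0022). Each of these values moved with single libraries. The value in Osx- CD45- cells came to 0.13 without WT replicate 3, the library of highest leukocyte sum. That in Osx+ CD45- cells was 1.95 without Cdh2-cKO replicate 1, the other library of high leukocyte sum, 2.44 without WT replicate 1, 3.93 without Cdh2-cKO replicate 2 and 5.41 without WT replicate 2, and its adjusted p ran from 0.0981 to 1 over all alternatives run. The difference was 3.11 without Osx- CD45- WT replicate 3, 5.34 without Osx+ CD45- Cdh2-cKO replicate 1, 1.80 without both and 8.80 without Osx+ CD45- WT replicate 2, and its adjusted p ran from 0.0022 to 0.999904 over all alternatives run.

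Cdh11 and Cdh5 were lower in both Cdh2-cKO than in both WT libraries of Osx+ CD45- cells, at log2 fold changes of -1.16 ± 0.71 (edgeR adjusted p = 0.583) and -1.43 ± 0.83 (edgeR adjusted p = 0.562). With 2 libraries against 2, 20.7% of all genes lay apart in this direction. The fibroblast and endothelial sums lay apart the same way, at 36961 and 69667 in WT against 17687 and 32900 in Cdh2-cKO, and at 242 and 336 against 100 and 139. Cdh11 remained at 0.451% to 0.503% of the fibroblast sum in these 4 libraries. In CD45+ cells the same members lay apart the other way. Cdh5 was at 0.951, 0.819 and 1.003 normalized CPM in Osx+ CD45+ WT and at 1.16, 1.21 and 2.23 in Cdh2-cKO, as were 6.74% of genes in that population. The endothelial sum lay apart the same way, at 27.3, 16.5 and 26.1 in WT and 30.7, 45.0 and 37.4 in Cdh2-cKO. Pecam1 alone made up 35.3 of the 45.0 in Cdh2-cKO replicate 2 and 5.79 of the 16.5 in WT replicate 2. Without Pecam1 the sums of the genotypes overlapped, so the endothelial genes as a set did not lie apart. Cdh11 was at 0.421, 0.917 and 0.485 in Osx- CD45+ WT and at 1.92, 1.07 and 1.73 in Cdh2-cKO, as were 4.15% of genes there. The fibroblast sum overlapped, at 125, 310 and 108 in WT and 296, 233 and 203 in Cdh2-cKO. The part of endothelial or fibroblast RNA in these differences was not tested. Neither passed the test (edgeR adjusted p = 1 and 0.538). Cdh13 had a log2 fold change of 0.81 over all 4 populations, with a 95% interval of -0.04 to 1.66 (edgeR adjusted p = 0.459). The CD45 difference of Cdh11 was smaller in Cdh2-cKO by 1.77 ± 0.68 on the log2 scale, at an unadjusted p of 0.019 that did not hold after adjustment (edgeR adjusted p = 0.602; 0% of all genes passed).

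The partners of the cadherins differed between CD45+ and CD45- cells in both directions. Of 16 catenins and linkers, 13 could be tested, of which 9 were lower and 3 higher in CD45+ cells, with a median log2 fold change of -0.87 against 0.06 over all genes. Of all genes tested, 31.1% were lower, 32.6% higher and 63.7% called in either direction in this contrast. Lower were the junction scaffold Tjp1 (-3.93), the α-catenin relative Ctnnal1 (-3.08), Plekha7 (-2.92), the actin linker vinculin (Vcl, -2.10), plakoglobin (Jup, -1.34), α-catenin (Ctnna1, -0.95), p120-catenin (Ctnnd1, -0.87), β-catenin (Ctnnb1, -0.65) and afadin (Afdn, -0.40), and higher were Ctnnd2 (2.39), Pip5k1c (0.88) and the scaffold Iqgap1 (0.70). Both core catenins were well above the floor in either sort. Ctnnb1 was at a mean of 178 normalized CPM in CD45- and 113 in CD45+ libraries, and Ctnna1 at 354 and 175. Of 12 proteases and regulators that shed or tune cadherins, 7 were higher in CD45+ cells, among them Adam10, which cleaves E- and N-cadherin (1.30), and the phosphatase Ptpn1 (1.33), and 3 were lower, the endothelial phosphatase Ptprb (-5.30), Ptprm (-4.70) and the membrane protease Mmp14 (-1.53), while Ncstn and Cblb did not pass. The median over the 12 was 0.39, against 0.06 and the same shares over all genes. Of 14 other cadherins only 3 could be tested: Cdh10 (-4.29) and Cdh15 (-4.58), the cadherin of muscle precursors, were lower and Cdh17 (1.67) was higher in CD45+ cells. Their means were 5.06, 2.10 and 0.402 normalized CPM in CD45- and 0.301, 0.0687 and 1.54 in CD45+ libraries. At such levels the filter tended to admit a gene through the sort where it was high. In the contrasts of Osx and of genotype, none of these 28 tested genes passed except Ptpn1. It was higher in Osx+ than in Osx- cells within CD45- (1.06 ± 0.21, edgeR quasi-likelihood test, adjusted p = 0.0223), where 1.89% of all genes tested passed.

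The genes with patterns most like each member over the 22 libraries were found by Pearson's r of log2 CPM. Since the libraries form a CD45+ and a CD45- cluster, r within the 10 CD45- libraries is given beside it for at least 1 gene of each set. Cdh1 was most like Nod2 (0.986, and 0.979 within CD45-), an intracellular sensor of bacterial peptides, Cd83, a maturation marker of dendritic cells, and Nlrp3, an inflammasome sensor. Cdh11 was most like the matrix genes Col6a3 (0.995, and 0.981 within CD45-), Postn and Col1a1, and Cdh5 like Clca2, Egfl7 (0.978, and 0.963 within CD45-), a secreted endothelial factor, and Depp1. Cdh13 was most like the water channel Aqp1 (0.986, and 0.837 within CD45-), Nbea and Sema5a. Cdh2 was most like vinculin, Vcl (0.966, and 0.836 within CD45-), Rin1 and Nr2f1, the last at only 0.490 within CD45-. Cdh3 was most like Slc35a2 (0.922, and 0.901 within CD45-), Rps4l and Plekhf1, and Cdh4 like the endothelial claudin Cldn5 (0.930, and 0.750 within CD45-), Spaar and Crispld1. Cdh6 was most like Pcdhb4 (0.943, and 0.870 within CD45-), Gm43154 and Sox7. These are descriptions of likeness across libraries that differ in cell composition.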

How the data were processed

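RNA was sequenced from 22 sorted libraries (SMARTer cDNA, unstranded single-end reads). The authors aligned reads with STAR 2.0.4b to GRCm38 and counted uniquely aligned, unambiguous reads per Ensembl gene with featureCounts. The deposited counts are raw, the deposited CPM values are those counts scaled by the authors to each library's total, and the deposited RPKM values are CPM that the authors divided by gene length. Only the counts were used here. Amplified cDNA carries no molecular identifiers, and libraries of a group differed by 51.5 to 446.7 times the counting variance. Symbols came from GENCODE M21, which named 40254 of 41388 genes.

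In R 4.3.3, 355 rRNA genes were left out, and a gene had to exceed 1 CPM in 2 or more libraries, which left 15043, among them all 8 cadherins. edgeR 4.0.16 fitted 8 group means with TMM factors and quasi-likelihood tests with Benjamini-Hochberg adjustment, after a test on simulated data. Normalized CPM are counts over TMM-scaled library sizes. Alternatives were limma 3.58.1 voomWithQualityWeights, which the study's methods name, DESeq2 1.42.0, RLE factors, no filter, a replicate block, single genotypes or CD45 classes, and libraries left out. p-values measure the spread between these libraries. The cadherins, marker and partner lists, and the libraries doubted were chosen with earlier results of these data known. The genes named are these lists and the 3 genes most like each cadherin.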

Additional observations from a re-analysis of the deposited data

Results flagged for a closer look

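In 29 combinations of a cadherin and a population of 4 or 6 libraries, the highest or lowest library was compared with its nearest neighbour by Dixon's ratio at the 95% level. With normally distributed values chance alone would mark about 1 in 20. By this rule 6 libraries stood apart. The values were unlogged, both genotypes were pooled, and all 6 were the highest of their set, so that rate does not apply here. In Osx- CD45- cells Cdh1 was at 117 normalized CPM in WT replicate 3, with the next library at 5.42. In the same population Cdh2-cKO replicate 3 had the most Cdh6, at 1.54 with the next at 0.631, and the most Cdh13, at 383 with the next at 166. In Osx+ CD45+ cells Cdh2-cKO replicate 3 had the most Cdh5, at 2.23 with the next at 1.21, and the most Cdh13, at 8.54 with the next at 2.32. In Osx- CD45+ cells Cdh4 was at 0.269 in WT replicate 3, from 5 counts, with the next at 0.0669.

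For 2 cadherins the libraries of the genotypes lay apart in opposite directions in 2 populations. The Cdh2-cKO minus WT mean of Cdh5 was -12.1 normalized CPM in Osx+ CD45- and 0.608 in Osx+ CD45+ cells. That of Cdh11 was -142 in Osx+ CD45- and 0.966 in Osx- CD45+ cells. These differences between populations were not tested.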

How the results depend on the processing

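Between CD45+ and CD45- populations 7 or 8 cadherins passed under every alternative run, and leaving out each library in turn gave 7 to 8, Cdh6 being the one lost. It was lost without Osx+ CD45- Cdh2-cKO replicate 1, which leaves that group with a single library without a count of Cdh6. That fit therefore cannot show whether the call holds. Cdh6 did not pass the filter in the WT libraries alone. Within CD45- cells, Osx+ against Osx- gave 0 cadherins, but 1 by voom (Cdh11), 1 without both doubted libraries, Osx- CD45- WT replicate 3 and Osx- CD45+ WT replicate 2 (Cdh5), 1 in the Cdh2-cKO libraries alone (Cdh1), and 0 to 1 with each library left out (Cdh11 without Osx- CD45- WT replicate 1). Of the 15043 genes tested in this contrast, voom called 710 and the main fit 284. The share of all genes that passed is not given for the fits on fewer libraries. Cdh2-cKO against WT in Osx- CD45- cells gave 1 by DESeq2 (Cdh1, among 548 genes called), and so did the genotype difference of the Osx contrast (among 560), against 0 otherwise. Both gave 0 to 1 with each library left out, where Cdh1 passed without Osx- CD45- WT replicate 1 at -3.95 (edgeR adjusted p = 0.0314) and 7.20 (adjusted p = 0.0164). The genotype change of Cdh1 in Osx- CD45- cells turned from -3.39 to 0.13 without both doubted libraries, without both CD45- libraries of highest leukocyte sum (chosen after seeing the data) and without WT replicate 3, in a range of -3.95 to 0.13 over single libraries left out. The changes of Cdh2 ranged from -1.29 to 0.0597 in Osx+ CD45+ and from -0.47 to 1.58 in Osx- CD45+ cells. The share of Cdh13 without division by length was 36.1% in Osx+ CD45- and 50.6% in Osx- CD45- cells, against 19.2% and 31.0%. The cause of these changes was not tested.

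The deviations of same-numbered libraries of different groups had correlations of -0.39 to 0.593, with a median of -0.018 and 13 of 71 pairs over 0.1. Pairs across genotypes cannot share a mouse. Of the 30 pairs within a genotype, 10 were over 0.1. Of the 22 libraries, 6 correlated best with their own number. Whether same-numbered libraries share a mouse cannot be told from these values, and the main fit treated all libraries as independent. With the replicate block 8 cadherins passed between CD45+ and CD45- cells and 0 in the other contrasts, as without it. Groups of 2 or 3 libraries and counts near 3 limit what could be seen of Cdh4 and Cdh6.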
